A study of Mus musculus with 9 samples.

Results

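Pld4 and 8 further genes whose products break down, edit or limit self nucleic acids were followed through sorted splenic B cells of young and aged mice. The 9 genes were listed by symbol (Pld3, Pld4, Trex1, Dnase2a, Samhd1, Rnaseh2a, Rnaseh2b, Rnaseh2c and Adar), and all 9 were among the 24346 genes measured. Pld4 was picked for its high level in age/autoimmunity-associated B cells (ABCs), and the others were picked by function with earlier results of these libraries known. For the 9 genes, differences between ABCs and follicular (FO) B cells were therefore selected on the values themselves and are given as a description. How many of the 9 passed the FDR there is stated once, beside the share of all genes, and is no support for a difference. RNA-seq had been done on 3 libraries in each of 3 groups of wild-type C57BL6 mice. FO B (Young) were FO B cells of 8-wk-old mice, FO B (Aged) were FO B cells of 50-wk-old mice, and ABCs (Aged) were ABCs of 50-wk-old mice. FO B cells had been sorted as B220hi CD43- CD23+ CD21lo cells, and ABCs as B220hi CD43- CD23- CD21lo cells bearing CD11b and CD11c. No library of ABCs from young mice was analysed, so within ABCs the cell type and age cannot be told apart.

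Cells meet nucleic acids of their own in lysosomes, where debris is digested, and in the cytosol, and nucleases keep both pools low. PLD3 and PLD4 are lysosomal exonucleases that trim single-stranded nucleic acid from the 5′ end, which limits the ligands available to the endosomal receptors TLR7 and TLR9. DNase II (Dnase2a) cuts DNA in lysosomes, TREX1 removes DNA in the cytosol from the 3′ end, SAMHD1 hydrolyses dNTPs, the RNase H2 complex of subunits A, B and C removes ribonucleotides embedded in DNA, and ADAR edits adenosine to inosine in double-stranded RNA. Inherited loss of TREX1, SAMHD1, RNase H2 or ADAR in humans causes an interferon-driven inflammatory disease, and mice without Pld4 develop inflammation.

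PLD3 and PLD4 belong to the phospholipase D family, whose active site is built from a pair of HKD motifs. The coding stretches of these motifs are shown because they are what makes the 2 genes a pair within the list, although their levels in ABCs lay far apart. Each stretch is given 5′ to 3′ on the coding strand, from the GENCODE M21 transcripts on GRCm38. Capitals mark the H, K and last codon of the motif, written H-x-K-x-x-x-x-D with D or E allowed in the last place.
Pld3, first motif, chr7:27539404-27539427, minus strand: CACaccAAGttctgggtggtgGAT
Pld4, first motif, chr12:112765048-112765071, plus strand: CACtccAAAttctgggttgtgGAT
Pld3, second motif, chr7:27532591-27532614, minus strand: CACaacAAGtacatggtgactGAA
Pld4, second motif, chr12:112768082-112768105, plus strand: CACagcAAGttcatggtcacaGAC
The first stretches of the 2 genes shared 21 of 24 bases and the second shared 19 of 24. All 4 stretches lay in coding exons. They occupied codons 199 to 206 and 414 to 421 of Pld3 and codons 212 to 219 and 426 to 433 of Pld4. Each coding sequence held the motif 2 times.

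The libraries matched their labels. Tbx21, which encodes T-bet, lay between 165 and 189 FPKM (fragments scaled by transcript length and by the mapped total of the library) in ABCs and between 4.75 and 8.72 in FO B (Aged), whereas Fcer2a, which encodes CD23, lay between 0.463 and 6.95 in ABCs and between 697 and 728 in FO B (Aged). All 4 B lineage markers read here (Cd79a, Cd79b, Ms4a1 and Pax5) were present, with a summed level of 5385 to 7278 FPKM in ABCs and 6957 to 7336 in FO B (Aged). At an FDR under 0.05 in limma, 0 of the 4 were called higher in ABCs and 1 lower, beside 19.4% and 16.5% of all genes. Pax5 was at 21.4, 20.7 and 18.8 FPKM in ABCs and at 29.6, 26.6 and 32.5 in FO B (Aged). Among the ABC libraries, all 4 were lowest in replicate 3. Depth was close to even, at about 8080000 to 9820000 mapped reads per library as recovered from the steps between low values. ABCs replicate 3 stood somewhat apart, with Pearson r over genes of 0.964 and 0.958 to the other ABC libraries, against 0.973 to 0.980 for every other pair within a group. Values without it are given where members are described. In bulk RNA, fewer cells of a type and less RNA per cell cannot be told apart.

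Pld4 was the most abundant of the 9 genes in ABCs. Its level was 160, 182 and 198 FPKM in the FO B (Young) libraries. FO B (Aged) gave 202, 187 and 179 FPKM, and the ABC libraries gave 1039, 1049 and 1135 FPKM. The 2 FO B groups overlapped, and every ABC library lay far above all 6 FO B libraries. Group means were 180 ± 18.9, 189 ± 11.4 and 1075 ± 52.9 FPKM (SD, n = 3 libraries each), which put ABCs at 5.68 times FO B (Aged) and at 5.97 times FO B (Young). The fitted difference between ABCs and FO B (Aged) was 2.50 on the log2(FPKM + 1) scale (SE 0.07), and it was 2.46 without ABCs replicate 3. Each ABC library held 15071 to 16811 reads of Pld4, against 2817 to 3263 in FO B (Aged), as recovered from the value steps. In single libraries Pld4 exceeded 99.1% to 99.3% of the genes at or above 1 FPKM in ABCs and 94.2% to 95.01% in FO B (Aged). Pld4 (ENSMUSG00000052160.7) lies on chr12:112760655-112768990, plus strand, and no other annotated gene shares its exons.

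Pld4 is also known from plasmacytoid dendritic cells (pDCs), so markers of that and other cell types were read beside it. In the 7-gene pDC list, 5 genes averaged 1 FPKM or more in ABCs and 2 in FO B (Aged). None of the 7 was at 0 throughout either group. The summed level was 2305 to 3340 FPKM in ABCs and 4831 to 5598 in FO B (Aged), nearly all of it from Ly6d, which B cells also express and which averaged 2808 and 5229 FPKM. Without Ly6d the sum was 3.76 to 15.5 FPKM in ABCs and 6.40 to 7.89 in FO B (Aged). The pDC receptor Siglech was at 1.56, 1.16 and 0.664 FPKM in the ABC libraries and at 0, 0 and 0.360 in FO B (Aged). Klk1 and Cox6a2 averaged 2.42 and 4.61 FPKM in ABCs and 0.124 and 0.227 in FO B (Aged), whereas Pacsin1 averaged 1.56 against 5.19, Smim5 0.330 against 0.879 and Ccr9 0.646 against 0.399. ABCs replicate 3 had the lowest sum of these 6 genes and the lowest Siglech level of the ABC libraries, and the highest level of Pld4. The part of pDC transcripts in the Pld4 level was not tested.

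Of the 10 macrophage and monocyte markers, 4 averaged 1 FPKM or more in ABCs and 3 in FO B (Aged), with summed levels of 75.4 to 90.4 and 14.8 to 22.7 FPKM. Ly6c2 made up most of this in ABCs, where it averaged 74.2 FPKM against 11.5 in FO B (Aged). Vcam1 averaged 2.69 against 0.497 FPKM, Lyz2 5.10 against 3.99 and C1qb 2.01 against 1.01, and the other 6 averaged under 1 FPKM in both. Of the 4 tested, 2 were called higher in ABCs and 0 lower, beside 19.4% and 16.5% of all genes. Vcam1 passed the filter on low values only through ABCs. The 5 plasma cell markers summed to 180 to 210 FPKM in ABCs and 112 to 130 in FO B (Aged), and 4 and 3 averaged 1 FPKM or more. Xbp1 led in both, averaging 134 against 114 FPKM. Jchain averaged 38.2 against 5.93, Sdc1 15.8 against 3.11, Prdm1 4.46 against 0.378 and Tnfrsf17 0.204 against 0.137. In ABCs replicates 1 to 3, Jchain was at 61.6, 40.5 and 12.5 FPKM and Sdc1 at 9.54, 8.37 and 29.5. Of the 4 tested, 3 were called higher in ABCs and 0 lower, beside 19.4% and 16.5% of all genes. Prdm1 passed the filter on low values only through ABCs. The 6 conventional dendritic cell markers summed to 3.38 to 5.79 FPKM in ABCs and 2.103 to 5.08 in FO B (Aged), with 2 at 0 throughout FO B (Aged). A different 1 of the 6 averaged 1 FPKM or more in each group. In ABCs this was Zbtb46 (3.17 against 0.853 FPKM), and in FO B (Aged) it was Flt3 (2.18 against 0.765 in ABCs). Of the 2 tested, 1 was called higher in ABCs (Zbtb46) and 0 lower. Zbtb46 passed the filter on low values only through ABCs. No marker of neutrophils, T cells or NK cells reached a mean of 1 FPKM in ABCs, where each list summed to at most 0.967 FPKM. In FO B (Aged) the neutrophil markers summed to 0.987 to 23.9 FPKM, led by S100a8. The part of these cell types in the differences between ABCs and FO B cells was not tested.

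Pld3, the close relative of Pld4, differed much less between the groups. It was at 58.3, 60.7 and 46.0 FPKM in FO B (Young), at 62.7, 53.9 and 59.8 in FO B (Aged), and at 75.4, 71.6 and 63.0 in ABCs. The ABC libraries lay above those of FO B (Aged) by a narrow margin, since the lowest ABC library and the highest FO B (Aged) library were nearly equal. On average ABCs held 1.19 times the level of FO B (Aged), with a log2 difference of 0.25 (SE 0.09), and 0.32 without ABCs replicate 3. Within a library, the level of Pld4 was 2.997 to 3.46 times that of Pld3 in FO B (Aged) and 13.8 to 18.04 times in ABCs. Pld3 (ENSMUSG00000003363.15) lies on chr7:27532000-27553218, minus strand.

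**Figure D1:**
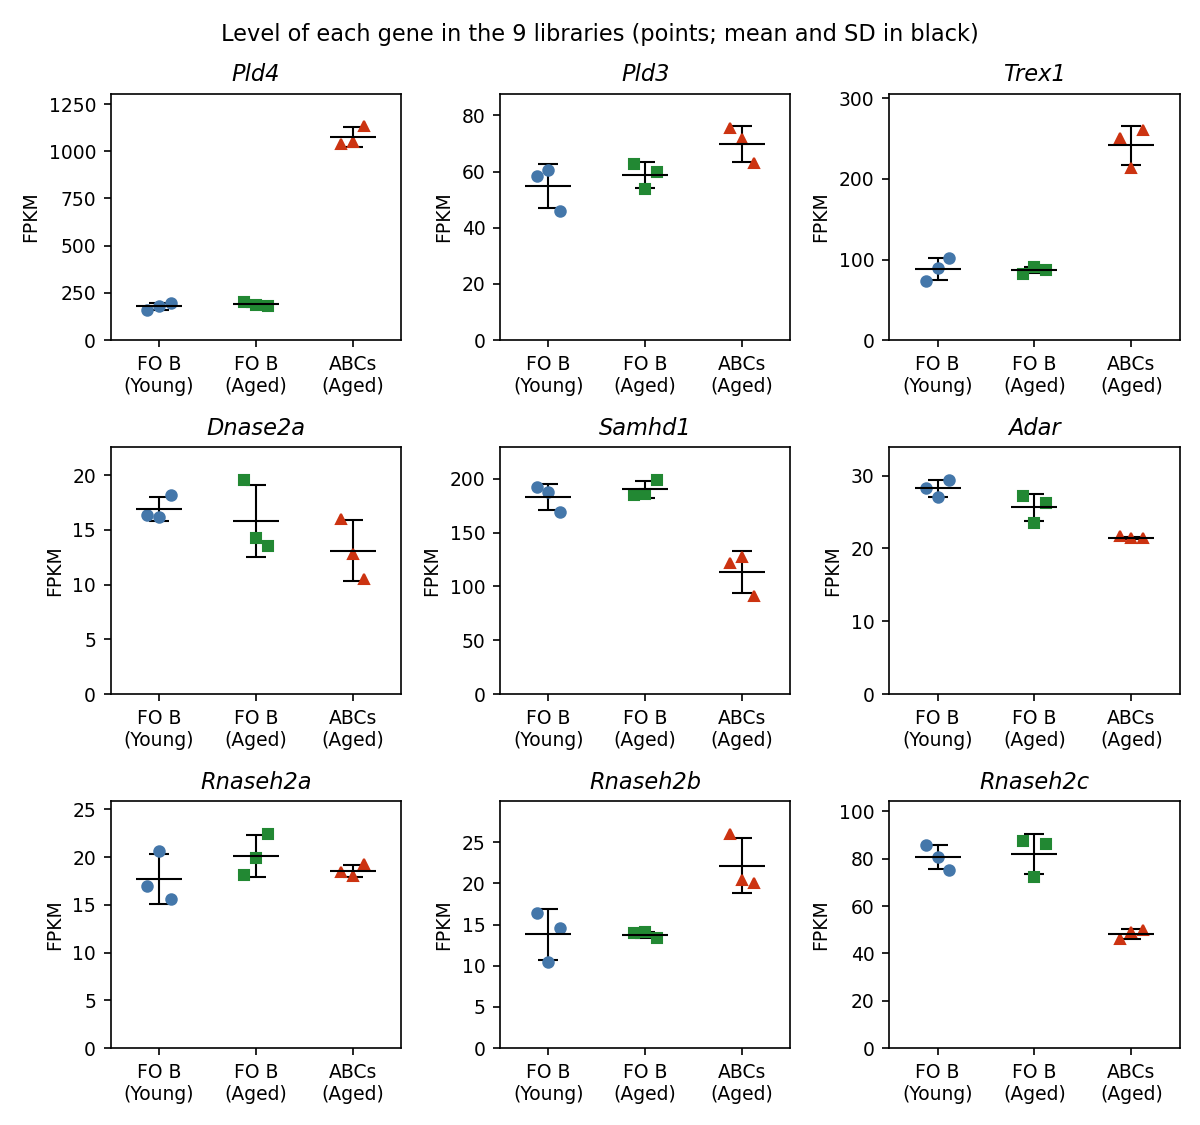
FPKM of each of the 9 genes (vertical axes, linear from 0) in the 3 libraries of FO B (Young), FO B (Aged) and ABCs (Aged), with replicates 1 to 3 from left to right in each group; horizontal lines are means and bars are SDs (n = 3). Pld4 and Trex1 stand far above both FO B groups in ABCs, Samhd1 and Rnaseh2c stand below them, and the FO B groups overlap for all 9 genes.

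Among the genes that act on DNA or its precursors, Trex1 and Samhd1 lay on opposite sides. Trex1 was at 73.8, 89.9 and 102 FPKM in FO B (Young), at 82.6, 90.6 and 87.0 in FO B (Aged) and at 251, 214 and 260 in ABCs. All ABC libraries were above all FO B libraries, at 2.79 times FO B (Aged) on average and with a log2 difference of 1.46 (SE 0.09). Without ABCs replicate 3 it was 1.41. Trex1 (ENSMUSG00000049734.9, chr9:109057933-109059734, minus strand) has 1147 exonic bases, and all 1147 also lie in exons of Atrip, a checkpoint gene on the same strand. Atrip itself was at 10.8 FPKM in FO B (Aged) and 11.2 in ABCs on average, and how reads were divided between the 2 genes depended on the quantification by the authors.

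Samhd1 gave 192, 188 and 169 FPKM in FO B (Young), 185, 186 and 199 in FO B (Aged), and 122, 128 and 91.5 in ABCs. Every ABC library was below every FO B library, and replicate 3 was the lowest of them. On average the level was 0.598 times the one of FO B (Aged), with a log2 difference of -0.75 (SE 0.13), and of -0.60 without ABCs replicate 3. In FO B (Aged) the level of Trex1 was 0.437 to 0.487 times that of Samhd1 within a library, whereas in ABCs it was 1.68 to 2.84 times. The order of these 2 genes was thus opposite in the 2 populations. Samhd1 (ENSMUSG00000027639.16) spans chr2:157097533-157135265 on the minus strand and shares no exon with another gene.

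Dnase2a was the least abundant of the 9 genes in ABCs. It was at 16.3, 16.2 and 18.2 FPKM in FO B (Young), at 19.6, 14.3 and 13.5 in FO B (Aged), and at 16.005, 12.8 and 10.5 in ABCs. The ABC libraries overlapped those of FO B (Aged) and lay below those of FO B (Young) by a narrow margin. The log2 difference from FO B (Aged) was -0.25 (SE 0.18), and -0.11 without ABCs replicate 3. Between 62 and 114 reads per library supported the values of aged mice, the fewest of the 6 genes whose reads could be recovered. Dnase2a (ENSMUSG00000003812.13) is on chr8:84908560-84922915, plus strand, and 1616 exonic bases also belong to Mast1 on the other strand, which averaged 1.25 FPKM in FO B (Aged) and 0.568 in ABCs.

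The genes of the 3 RNase H2 subunits differed between ABCs and FO B (Aged) in unlike ways. The catalytic subunit gene Rnaseh2a was at 16.9, 20.7 and 15.6 FPKM in FO B (Young), 18.1, 19.9 and 22.4 in FO B (Aged), and 18.5, 17.99 and 19.3 in ABCs. All 3 groups overlapped, and the log2 difference between ABCs and FO B (Aged) was -0.11 (SE 0.10). Rnaseh2b, which encodes an accessory subunit, was at 16.4, 10.4 and 14.5 FPKM in FO B (Young), 13.9, 14.0 and 13.4 in FO B (Aged), and 26.0, 20.5 and 20.01 in ABCs. Each ABC library was above all FO B libraries, at 1.61 times FO B (Aged) on average (log2 difference 0.64, SE 0.11). The other accessory subunit gene, Rnaseh2c, was at 85.6, 80.8 and 75.4 FPKM in FO B (Young), 87.6, 72.3 and 86.3 in FO B (Aged), and 45.9, 49.2 and 49.8 in ABCs. It was lower in every ABC library than in any FO B library, at 0.589 times FO B (Aged) on average (log2 difference -0.75, SE 0.09). Without ABCs replicate 3 the log2 differences were -0.13, 0.71 and -0.77 for Rnaseh2a, Rnaseh2b and Rnaseh2c.

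The RNase H2 subunits are known to join in equal numbers, yet the FPKM of their genes were unequal in all groups. FPKM depend on the transcript lengths used, which are not given, and their part in this inequality was not tested. In FO B (Aged), recovered reads per library were 270 to 366 for Rnaseh2a, 141 to 173 for Rnaseh2b and 308 to 332 for Rnaseh2c. In ABCs these reads were 278 to 299, 206 to 266 and 163 to 193. In FO B (Aged) the level of Rnaseh2b was 0.155 to 0.194 times that of Rnaseh2c within a library. In ABCs it was 0.402 to 0.567 times, and no library of one group reached the range of the other. Rnaseh2a stood at 0.207 to 0.275 times Rnaseh2c in FO B (Aged) and at 0.365 to 0.402 times in ABCs. Overlapping genes touch these values. Rnaseh2c (ENSMUSG00000024925.11, chr19:5601873-5607019, plus strand) shares 426 exonic bases with Kat5 on the other strand, which averaged 23.6 FPKM in FO B (Aged) and 19.2 in ABCs. Rnaseh2a (ENSMUSG00000052926.16, chr8:84956610-84969767, minus strand) shares 339 with Gm49661 on the same strand, whose level was not analysed here, and 177 with Prdx2 on the other strand, which averaged 152 and 190 FPKM. Rnaseh2b (ENSMUSG00000021932.13, chr14:62292589-62372992, plus strand) shares 66 with Dleu7, which was listed at 0 throughout. The library kit does not keep the strand, and the part of these overlaps was not tested.

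**Figure D2:**
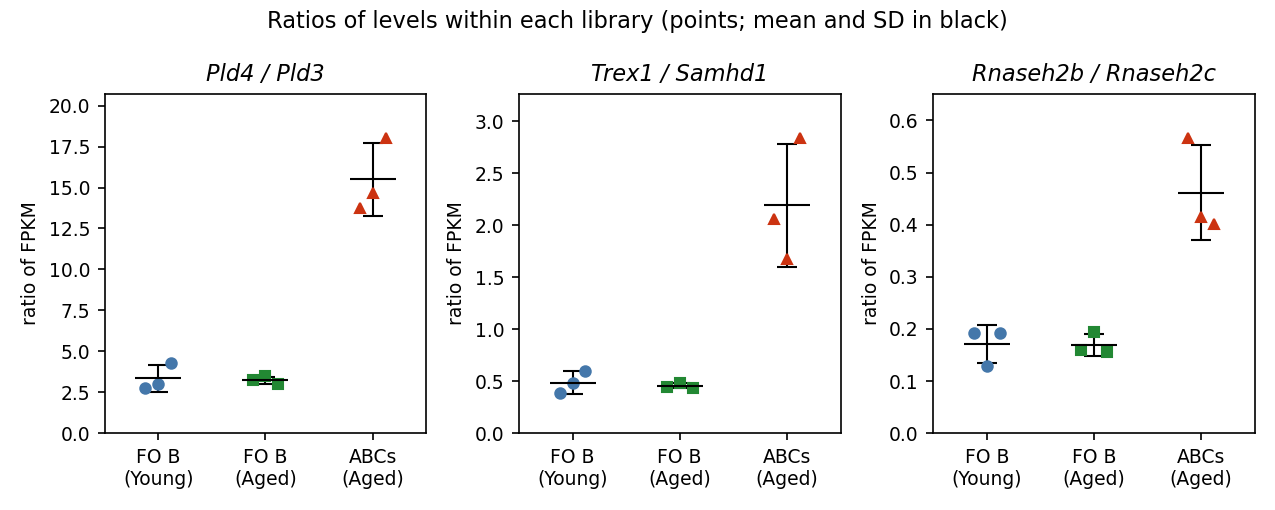
Ratio of FPKM between 2 genes within each library (vertical axes, linear from 0), for Pld4 over Pld3, Trex1 over Samhd1 and Rnaseh2b over Rnaseh2c; points are libraries, horizontal lines are means and bars are SDs (n = 3). In each panel the 2 FO B groups overlap and the ABC libraries lie above them, with mean ratios in FO B (Aged) and ABCs of 3.23 and 15.5, 0.457 and 2.19, and 0.169 and 0.461.

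Adar was at 28.4, 27.0 and 29.4 FPKM in FO B (Young), at 27.2, 23.6 and 26.3 in FO B (Aged), and at 21.7, 21.5 and 21.4 in ABCs. The ABC libraries were close to each other and below all FO B libraries. Their mean was 0.838 times that of FO B (Aged), with a log2 difference of -0.24 (SE 0.08), both with and without ABCs replicate 3. The interferon-induced long isoform and the constitutive short isoform of ADAR cannot be separated in a gene-level value. Adar (ENSMUSG00000027951.16) lies on chr3:89715022-89753446, plus strand, and shares 1365 exonic bases with Chrnb2, which averaged under 1 FPKM (0.191 in FO B (Aged) and 0.0604 in ABCs).

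Set side by side, 4 of the 9 genes (Pld4, Trex1, Rnaseh2b and Pld3) were above FO B (Aged) in every ABC library, 3 (Samhd1, Rnaseh2c and Adar) were below, and 2 (Rnaseh2a and Dnase2a) overlapped. Of the 10412 genes that averaged 1 FPKM or more over these 6 libraries, 26.3% were above and 26.3% were below without overlap. At an FDR under 0.05 in limma, 19.4% of all genes were called higher in ABCs and 16.5% lower. Of the 9 genes, 3 were past it in the higher direction (Pld4, Trex1 and Rnaseh2b) and 2 in the lower (Samhd1 and Rnaseh2c). Nothing is read from these counts, since the genes were selected on this contrast. The median log2 difference of the 9 was -0.11, against -0.01 over all genes, and the median of its absolute size was 0.64 against 0.27.

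The scaling of libraries bears on the small differences. The upper quartile as scale raised the median log2 difference of all genes to 0.15 and turned a split of 2020 genes higher and 1719 lower into 2447 and 603. Under that scaling Pld4 was at 2.68, Trex1 at 1.64, Samhd1 at -0.57 and Rnaseh2c at -0.57 on the log2 scale. Rnaseh2a went from -0.11 to 0.07, Adar from -0.24 to -0.07, Pld3 from 0.25 to 0.43 and Dnase2a from -0.25 to -0.08, so the direction of the first and the size of the others depended on the scaling. Against FO B (Young), which shares the ABC libraries with the comparison above, the log2 differences of Pld4, Trex1, Rnaseh2b and Pld3 were 2.57, 1.45, 0.66 and 0.35. Those of Rnaseh2c, Samhd1, Adar and Dnase2a were -0.73, -0.70, -0.38 and -0.36, and that of Rnaseh2a was 0.07.

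**Figure D3:**
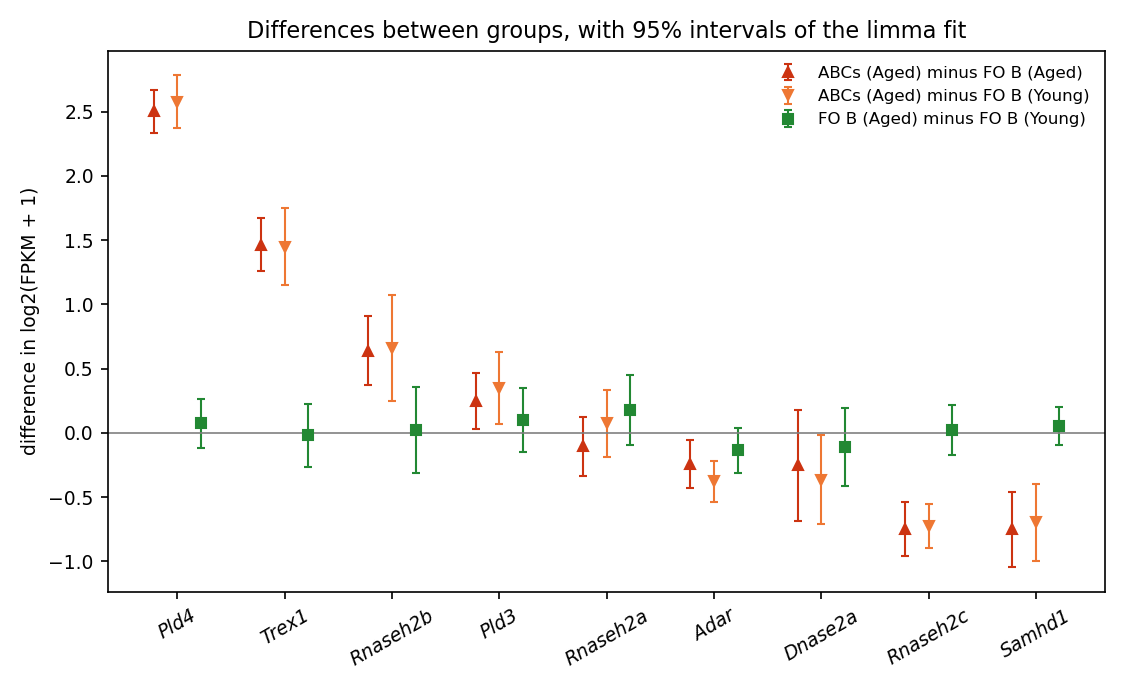
Fitted difference in log2(FPKM + 1) of each gene (vertical axis) for ABCs minus FO B (Aged), ABCs minus FO B (Young) and FO B (Aged) minus FO B (Young), with 95% intervals of the limma fit; genes are ordered by the first. The comparisons share libraries in pairs, and the 2 with ABCs are a description because the genes were chosen on them. Pld4 stands at 2.50 and Samhd1 at -0.75 in the first, and all 9 intervals of the age comparison include 0.

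The order of levels within a group differed between FO B cells and ABCs. FPKM is per length, so genes can be ordered, given the transcript lengths used by the authors, which are not known here. In FO B (Young) and FO B (Aged) alike, Samhd1 and Pld4 came first with overlapping ranges, then Trex1 and Rnaseh2c with overlapping ranges, then Pld3, then Adar, and last Rnaseh2a, Dnase2a and Rnaseh2b, which overlapped from each to the next. In ABCs the order was Pld4, Trex1, Samhd1, Pld3, Rnaseh2c, Rnaseh2b, Adar, Rnaseh2a and Dnase2a, and only Rnaseh2b and Adar overlapped as neighbours. Pld4 made up 26.1% to 28.9% of the summed FPKM of the 9 genes in FO B (Aged), whereas in ABCs it made up 64.3% to 68.0%. Without Pld4 the sum in FO B (Aged) was 474 to 508 FPKM and that in ABCs 535 to 576. These last ranges did not overlap.

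Between FO B cells of young and aged mice, a contrast that the choice of genes did not use, none of the 9 was called. At an FDR under 0.05 in limma, 0.346% of the 10122 genes tested were called higher in FO B (Aged) (35 genes) and 0.119% lower (12 genes), and 1298 had an unadjusted p under 0.05. For the 9 genes 0 were called and 0 had an unadjusted p under 0.05, with FDRs of 0.507 to 0.974. All 9 overlapped between the FO B groups, and so did most of all genes, since 9.64% lay above and 8.96% below without overlap. Pld4 averaged 180 FPKM in young and 189 in aged mice, with a log2 difference of 0.07 and a 95% interval of -0.12 to 0.26 (limma FDR 0.772). The exact two-sided permutation p over the 20 orders was 0.5, where the smallest possible is 0.1. The interval leaves room for a change of that size in either direction and not for one like the difference between ABCs and FO B cells.

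For Trex1 the log2 difference with age was -0.02 (95% interval -0.26 to 0.23), for Samhd1 0.05 (-0.09 to 0.20) and for Pld3 0.10 (-0.15 to 0.35). For Rnaseh2a it was 0.18 (-0.09 to 0.45, limma FDR 0.583). Those of Rnaseh2b and Rnaseh2c were 0.02 (-0.32 to 0.35) and 0.02 (-0.17 to 0.22). Adar was at -0.14 (-0.31 to 0.04), with the lowest FDR of the 9 (limma, 0.507) and an exact permutation p of 0.2, and Dnase2a at -0.11 (-0.42 to 0.20). A p that misses the threshold does not show that the levels were equal, and with 3 libraries a group no exact p could fall below 0.1. The upper quartile as scale moved the median of all genes to -0.12 and the split of calls from 35 higher and 12 lower to 24 and 27, again with none of the 9 called. There Rnaseh2a was at 0.056, Dnase2a at -0.23 and Adar at -0.26.

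The genes whose profile over the 9 libraries was nearest to that of Pld4 were found by the root mean square difference of log2(FPKM + 1), centred on each gene's mean, among 10375 genes. They were Zfyve21 (0.080), Bag3 (0.132), Zc3h12c (0.150), Bcl2l15 (0.164) and Rhobtb1 (0.170). Zfyve21, an endosomal FYVE-domain protein, averaged 6.67, 6.51 and 45.3 FPKM in FO B (Young), FO B (Aged) and ABCs. Bag3, a co-chaperone of HSP70, averaged 0.174, 0.138 and 5.34 FPKM. Zc3h12c, of a family of RNA-degrading zinc finger proteins, averaged 1.31, 1.502 and 14.9 FPKM. Bcl2l15 went from 0.236 and 0.233 to 6.43 and Rhobtb1 from 0.0724 and 0.220 to 6.36 FPKM. Of these, Bag3, Bcl2l15 and Rhobtb1 averaged under 1 FPKM in both FO B groups, passed the filter on low values only through ABCs, and had ABC to FO B (Aged) ratios of 38.6, 27.6 and 28.8 against 5.68 for Pld4, so their nearness rests on the pseudocount of 1. All 5 were far lower than Pld4 in level and high in the ABC libraries alone. Of the other 8 genes of the list, Trex1 was nearest, at rank 282 with a difference of 0.520, followed by Rnaseh2b at rank 1146, and Samhd1 was farthest at rank 9643. The 3 ABC libraries lie apart from the 6 FO B libraries, so the likeness rests mainly on 1 contrast.

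**Figure D4:**
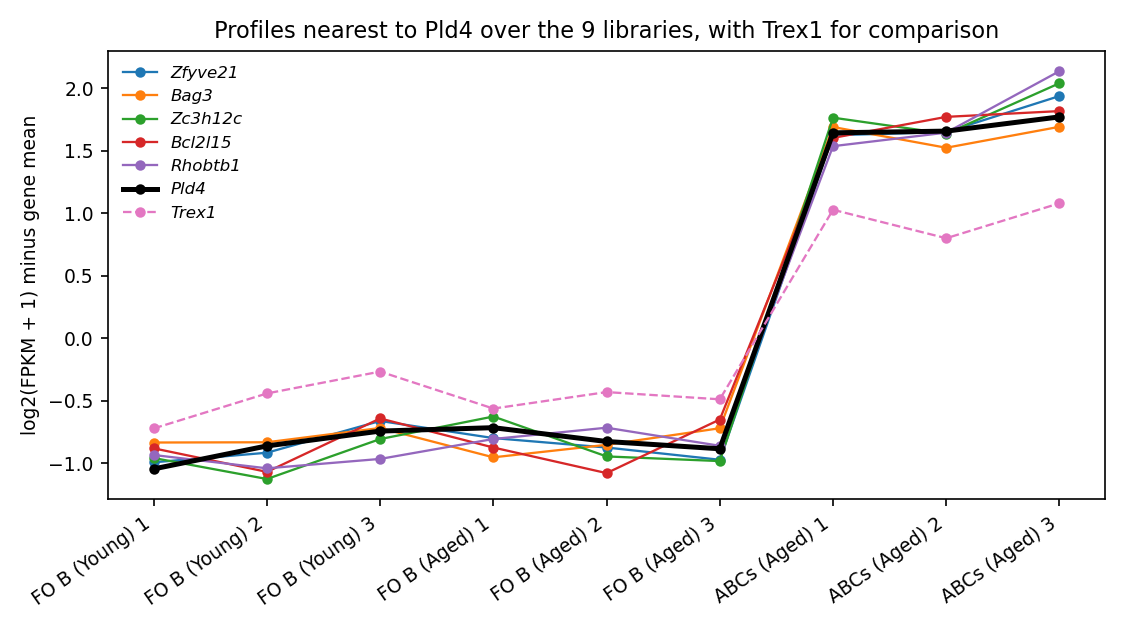
Log2(FPKM + 1) minus the gene's mean over the 9 libraries (vertical axis) in each library (horizontal axis), for Pld4 (thick black line), the 5 genes nearest to it and Trex1 (dashed line). The 6 FO B libraries sit near one low level and the 3 ABC libraries near one high level, with a smaller step for Trex1.

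Other genes that handle or sense nucleic acids were read from 3 lists made by function: 13 genes of endosomal sensing, 12 of cytosolic sensing and 20 other nucleases and editing enzymes. Of the 45 genes, 35 passed the filter on low values, and 15 rose and 4 fell in ABCs against FO B (Aged) at an FDR under 0.05 in limma, beside 19.4% and 16.5% of all genes. Without ABCs replicate 3 these counts were also 15 and 4. Pld2 and Mb21d1, among the 15, passed the filter only through ABCs, and among the 32 genes averaging 1 FPKM or more in both groups 13 rose and 4 fell. The median log2 difference of the 35 tested was 0.25, against -0.01 over all genes. These lists too were drawn up with earlier results known.

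Most calls were in the endosomal list, where 10 of 11 genes tested rose and 0 fell, beside 19.4% and 16.5% of all genes. Its median log2 difference was 0.65. Tlr7, the receptor for single-stranded RNA and its breakdown products, was at 6.85, 7.48 and 10.5 FPKM in FO B (Aged) and at 27.2, 20.7 and 36.7 in ABCs (log2 difference 1.64, SE 0.22, limma FDR 0.00166). Tlr9, the receptor for unmethylated CpG DNA, was at 2.45, 1.89 and 2.21 FPKM in FO B (Aged) and at 5.56, 7.13 and 6.15 in ABCs (1.19, SE 0.14, limma FDR 0.000847). Unc93b1, which carries these receptors to endosomes, was abundant in both, at 489, 480 and 478 FPKM and at 866, 908 and 1035 (0.95, SE 0.08, limma FDR 0.000226). Slc29a3, a lysosomal nucleoside transporter, averaged 8.39 FPKM in FO B (Aged) and 21.4 in ABCs (1.25, SE 0.11, limma FDR 0.000294). For these 4 genes the ABC libraries lay above those of FO B (Aged) without overlap, as did those of 26.3% of all genes. The 4 were named for their large differences, so nothing further is read from this. The further genes that rose, named to complete the list, were Tlr3, Hsp90b1, Myd88, Slc15a4, Irak4 and Cnpy3, with log2 differences of 0.79 to 0.25 in that order. Irf5, a transcription factor downstream of TLR7 and TLR9, did not pass (-0.17, limma FDR 0.0523). Its ABC libraries (156, 161 and 163 FPKM) lay below those of FO B (Aged) (177, 184 and 178) without overlap, as did those of 26.3% of all genes.

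In the cytosolic list, 3 of 12 genes rose and 4 fell, beside 19.4% and 16.5% of all genes. Among the 10 that averaged 1 FPKM or more in both groups, 2 rose and 4 fell. The median log2 difference of the 12 was -0.03. Mb21d1, which encodes the DNA sensor cGAS, was low throughout and passed the filter only through ABCs, at 0.475, 0.755 and 0.579 FPKM in FO B (Aged) and at 1.95, 1.45 and 2.05 in ABCs (0.81, SE 0.17, limma FDR 0.0102). Tmem173, which encodes its partner STING, fell from 105, 116 and 109 FPKM to 89.7, 86.7 and 68.1 (-0.44, SE 0.11, limma FDR 0.0197). The kinase gene Ikbke rose (0.75, limma FDR 0.00856) and the related kinase gene Tbk1 fell (-0.25, limma FDR 0.0334). Zbp1, a sensor of Z-form nucleic acid, rose (0.30, limma FDR 0.0166), and the RNA helicase genes Ddx58, which encodes RIG-I, and Dhx58 fell (-0.59, limma FDR 0.00951, and -0.49, limma FDR 0.00764). Some of these calls were lost when 1 library was left out, which leaves fewer libraries in the fit. Over all genes, this took the 2020 called higher to 1496 to 1963 and the 1719 called lower to 1054 to 1680. Tbk1 stayed at -0.21 to -0.28 on the log2 scale. Its call was lost on leaving out any 1 of the 6 libraries (limma FDR 0.0588 to 0.115). The call of Tmem173 was lost without FO B (Aged) replicate 2 or 3 (0.0669 and 0.0596). That of Zbp1 was lost without FO B (Aged) replicate 1 or 2 or ABCs replicate 1 (0.0641, 0.0547 and 0.0586). Under the upper quartile as scale Tmem173, Dhx58 and Tbk1 were no longer called (limma FDR 0.330, 0.131 and 0.736), and the call of Tbk1 was also lost with eBayes without trend (limma FDR 0.0547).

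Of the other nucleases, 2 of 12 genes tested rose and 0 fell, beside 19.4% and 16.5% of all genes. Among the 11 that averaged 1 FPKM or more in both groups, 1 rose and 0 fell. The median log2 difference of the 12 was 0.00. Pld2, a phospholipase D that acts on lipid and that passed the filter only through ABCs, rose from 0.567, 0.725 and 1.20 FPKM to 3.31, 2.86 and 3.86 (1.26, SE 0.18, limma FDR 0.00224). Dnase1l3, a secreted DNase that digests DNA in chromatin and apoptotic bodies, was at 1.65, 2.43 and 1.09 FPKM in FO B (Aged) and at 6.53, 6.19 and 2.94 in ABCs (1.16, SE 0.29, limma FDR 0.0203). Its call was lost without FO B (Aged) replicate 1 or 3 or ABCs replicate 1 or 2 (limma FDR 0.0595 to 0.0709). The remaining 10 genes, among them Fen1, Xrn1 and Rnaseh1, were not called. Neither came near Pld4 in level.

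**Figure D5:**
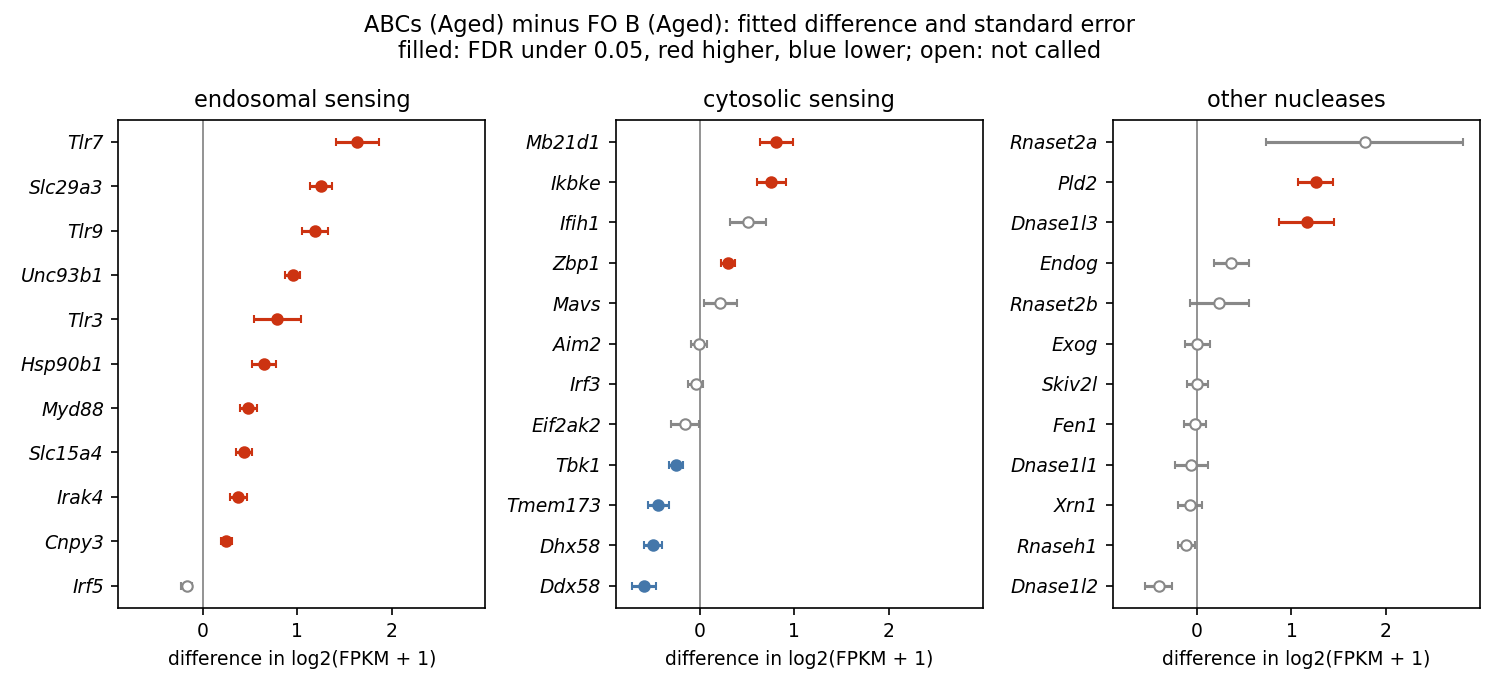
Fitted difference in log2(FPKM + 1) between ABCs and FO B (Aged) (horizontal axis) with its standard error for the genes tested in each of 3 lists, ordered by size; red filled points were called higher and blue filled points lower at an FDR under 0.05, and open points were not called. In the endosomal list 10 of 11 genes are red, in the cytosolic list 3 are red and 4 blue of 12, and among other nucleases 2 of 12 are red.

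With age in FO B cells, 0 of the 33 genes of these 3 lists that were tested were called in limma. Over all 10122 genes, 0.346% were called higher and 0.119% lower. An unadjusted limma p under 0.05 was found for 5 of the 33, beside 1298 of all genes. Tlr7 had the lowest FDR among the 33 (0.141), with 14.5, 12.6 and 12.2 FPKM in FO B (Young) and 6.85, 7.48 and 10.5 in FO B (Aged). Its aged libraries lay below the young ones without overlap, as did those of 8.96% of all genes. Without FO B (Aged) replicate 3, Tlr7 was the only one called (log2 difference -0.78, limma FDR 0.0371). Tlr7 is named here because of its values.

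Since failure of several of these enzymes is known for interferon signalling, 12 interferon-stimulated genes were read alongside. In ABCs against FO B (Aged), 1 of the 10 tested rose (Mx1) and 3 fell (Oasl2, Irf7 and Usp18), beside 19.4% and 16.5% of all genes, with a median log2 difference of -0.44. Between aged and young FO B cells 1 of 11 was called, beside 0.346% of all genes higher and 0.119% lower. This was Mx1, which fell from 5.72, 5.45 and 4.71 FPKM to 1.35, 1.59 and 1.91 (-1.27, limma FDR 0.00872). A further 9 had an unadjusted p under 0.05, and the median log2 difference was -0.89. Oasl2 averaged under 1 FPKM in ABCs and passed the filter only through FO B (Aged). Cell cycle genes were read because SAMHD1 and RNase H2 act on the precursors and products of DNA synthesis. Of the 12 listed and tested, 6 rose in ABCs and 0 fell, beside 19.4% and 16.5% of all genes, and 5 of 11 rose among those averaging 1 FPKM or more in both groups. Of the 6 that rose, Mki67, Top2a, Mcm6, Ccnb1 and Birc5 were highest in ABCs replicate 3, whereas Tyms was lowest there among the ABC libraries. The median log2 difference of the 12 was 0.58. The relation of these genes to the levels of the 9 was not tested.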

How the data were processed

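RNA-seq libraries (SMART-Seq HT cDNA, Nextera XT, which does not keep the strand, 101-base reads) of 9 sorted B cell samples were used, 3 per group as the titles give them. The authors deposited FPKM, 1 value per gene symbol and library. The submitters' processing notes name mm10 with TopHat2 2.1.1, Bowtie2 2.2.8, SAMtools 0.1.18 and Cuffdiff 2.2.1, and the methods of the study name other versions of these tools. The gene annotation behind the values is not given in the sources used here. The study gives 3 mice per group. Where libraries do not come from separate animals, p-values measure only the spread between samples.

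log2(FPKM + 1) was fitted with limma 3.58.1 (R 4.3.3, lmFit and eBayes with trend) on the 6 libraries of each comparison, keeping genes that averaged 1 FPKM or more. FDRs are Benjamini-Hochberg values over all of them, called under 0.05. Fold changes on this scale understate low genes. Single genes were also compared by exact two-sided permutation over 20 orders.

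Read numbers came from the steps between values. For 470 of 487 genes with 1 annotated transcript the steps gave a common depth. Reads were recovered for 6 of the 9 genes (not Trex1, Samhd1 or Adar) and can be too few where the true step is smaller. They were used for description only. Intervals cover the spread between libraries.

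Gene positions and the coding sequence of Pld3 and Pld4 are from GENCODE M21 on GRCm38. The motif was searched in the translated reading frame.

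The 9 genes and all lists were chosen with earlier results of these data known. Named were all 9 genes, up to 4 called genes per pathway list and direction with the largest log2 differences, the 5 nearest profiles to Pld4 and the highest marker of each list. Other list members and markers named in the text were added after their values were seen. Deviations of same-numbered libraries correlated weakly or not at all (r -0.092 to 0.138 over both comparisons), and no pairing was used. Between ABCs and FO B (Aged), 2 of the 3 same-numbered values (0.0845 and 0.108) exceeded those of all differently numbered pairs (at most 0.0589). Whether same-numbered libraries share a mouse is not given, so pairing cannot be decided here. Alternatives were other pseudocounts (0.1 and 0.01), filters (none and 5 FPKM), scalings (quantile, TPM and upper quartile), eBayes without trend, a replicate block, a joint fit of the 9 libraries, an FDR under 0.01 and leaving out each library. 1 gene of the nuclease list and 1 B lineage marker are not reported here and were left out of all counts and sums of those lists.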

Additional observations from a re-analysis of the deposited data

How the results depend on the processing

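For the 9 genes in ABCs against FO B (Aged), 137 of 144 alternative values moved by less than the spread between replicates, and the 7 others came from the upper quartile as scale, where the log2 difference of Pld4 was 2.68. Dropping single libraries gave 2.46 to 2.55 for Pld4. With age in FO B cells, 0 of the 9 genes were called under every alternative tried. Directions of these uncalled differences turned 15 times. The upper quartile as scale gave -0.025 for Pld3, -0.055 for Pld4, -0.075 for Samhd1, -0.10 for Rnaseh2b and -0.11 for Rnaseh2c. Dropping single libraries gave -0.019 to 0.18 for Pld3, -0.0066 to 0.14 for Pld4, -0.14 to 0.088 for Trex1, -0.0011 to 0.091 for Samhd1, -0.16 to 0.15 for Rnaseh2b and -0.027 to 0.11 for Rnaseh2c. Without a turn of direction it gave 0.095 to 0.29 for Rnaseh2a, -0.18 to -0.078 for Adar and -0.27 to -0.014 for Dnase2a.

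Of the 45 other pathway genes, 15 were called higher in ABCs. The filter at 5 FPKM, which tested fewer genes, left 10, and an FDR under 0.01 left 9. Leaving out 1 library gave 11 to 15. The 4 called lower became 1 under the upper quartile as scale (the cause was not tested), 2 at an FDR under 0.01, and 2 to 4 when 1 library was left out, with 2 without FO B (Aged) replicate 2 or 3. With age, 0 were called, and 0 to 1 when 1 library was left out. With the replicate number as a block, 15 and 4 pathway genes were called in ABCs, 0 of the 9 with age, and 1891 genes higher and 1557 lower over all genes. Deviations of same-numbered libraries of ABCs and FO B (Aged) correlated at 0.0845, -0.019 and 0.108, against -0.108 to 0.0589 for differently numbered ones. Of the 6 libraries, 4 correlated best with their own number. Among the 6 genes with recovered reads, Dnase2a had the fewest, at 62 to 115 per library.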
